A study of Pinus pinaster with 14 samples.

Results

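Cotyledon mesophyll transcripts of maritime pine (Pinus pinaster, a Mediterranean conifer) were defined as those with a normalised read count of at least 84 in the cotyledon mesophyll library whose count plus 5 reached 4 times or more the highest count plus 5 among 12 other tissues. The hypocotyl pith was left out of that comparison. A member's pith value thus did not enter its choice, but the decision to leave out the pith was made with earlier results of these data known. The rule held for 104 of the 23493 transcripts in the table, 0.443% of all and 5.86% of the 1775 that reached 84 in the cotyledon mesophyll. These members were thus chosen by their values in 13 of the 14 libraries. Their levels in those libraries are a description, and 0 tests were made on them.

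Tissues were cut by laser microdissection, which collects chosen cells from a frozen section under a microscope, from seedlings of the Oria provenance grown in soil in a culture chamber and harvested at 1 month, with no treatment named in the labels. Each tissue was 1 library: cotyledon mesophyll, cotyledon vascular, young needles mesophyll, young needles vascular, emerging needles, apical meristem, hypocotyl cortex, hypocotyl vascular, hypocotyl pith, root cortex, root vascular, developing root cortex, developing root vascular and root meristem. The cDNA was amplified before sequencing, and the labels do not say how many seedlings a library pools or whether libraries share seedlings. With 1 library per tissue there was no replicate error to set a difference against, so intervals below cover counting error only.

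Cotyledons are the first leaves of a pine seedling and its first photosynthetic surface. Their mesophyll is the green parenchyma between epidermis and vascular strand, where chloroplasts fix carbon, and it takes over from the stored reserves of the seed. The pith is the parenchyma at the centre of the stem, inside the vascular cylinder, and is mainly known for storage. Transcript identifiers in the table are not paired with gene names, so the role of each member is unknown here, the tissue label could not be checked against marker genes, and no sequence is shown. In tissue samples of this kind, fewer cells of a type and less RNA per cell cannot be told apart.

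Normalised counts of the 104 members in the cotyledon mesophyll ran from 85.8 to 5060.2, with a median of 152. In that library 1 read was worth 0.842, so the members rested on 102 to 6013 reads there, with a median of 181. Most of the group was modest in level: 68 members had a normalised count under 200, 28 lay between 200 and 900, and 8 exceeded 900. Those 8 supplied 45.0% of the members' cotyledon mesophyll reads. Read counts were not scaled to transcript length, so the order of members by reads is not an order by number of molecules. Together the members accounted for 4.49% of all reads of the cotyledon mesophyll library (95% Wilson interval 4.45 to 4.53%), against 1.09% in the hypocotyl pith (1.07 to 1.11%) and 0.353% in emerging needles (0.340 to 0.366%), the highest share among the other 12. The lowest shares were 0.0171% (0.0151 to 0.0192%) in root vascular tissue and 0.0181% (0.0150 to 0.0220%) in root cortex.

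The member with the highest ratio to the other 12 tissues was isotig24941. It stood at 654 in the cotyledon mesophyll (777 reads) and 175 in the hypocotyl pith (182 reads). Among the other 12 tissues its highest value was 7.09, in emerging needles (10 reads), and the next were 3.99 in the apical meristem and 3.91 in the root meristem. It stood at 3.35 in hypocotyl vascular and 2.63 in cotyledon vascular tissue, and at 1.56, 1.42 and 1.04 in developing root cortex, root vascular and developing root vascular tissue. No read was found in the young needles mesophyll, young needles vascular, hypocotyl cortex or root cortex libraries. All the reads outside the cotyledon mesophyll and pith came to 28, and the ratio used by the rule was 54.5. The transcript was thus carried almost wholly by a pair of libraries, of which the pith held the smaller part.

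The second-highest ratio, 32.4, belonged to unigene137853. Its value was 271 in the cotyledon mesophyll (322 reads) and 83.7 in the pith (87 reads). In the remaining tissues it had 8 reads in all: 4 in cotyledon vascular tissue (3.51), 2 in young needles vascular tissue (1.53), and 1 each in root cortex (2.96) and root vascular tissue (1.42). The other 8 tissues had none. Both leading members had the same order of tissues at the top, cotyledon mesophyll and then pith, with every further tissue resting on 10 reads or fewer. They were picked for low values in the 12 compared tissues, and pith was the highest other tissue for all 104 members.

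The member with the largest cotyledon mesophyll value was less exclusive. At 5060.2 there (6013 reads), it stood at 1762 in the pith, 188 in cotyledon vascular tissue, 70.8 in root vascular tissue, 56.4 in hypocotyl cortex, 53.3 in root cortex and 43.5 in hypocotyl vascular tissue. The lowest of its 14 values was 5.87, in young needles mesophyll. It was 1 of 2 members with reads in all 12 compared tissues. The other had the third-highest mesophyll value, 1755, with 989 in the pith, 254 in emerging needles and 207 in young needles vascular tissue, and did not fall below 41.1 in any library. The second-highest mesophyll value was 1782. That member stood at 509 in the pith and 360 in cotyledon vascular tissue and had no read in any of the 5 root libraries.

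**Figure D1:**
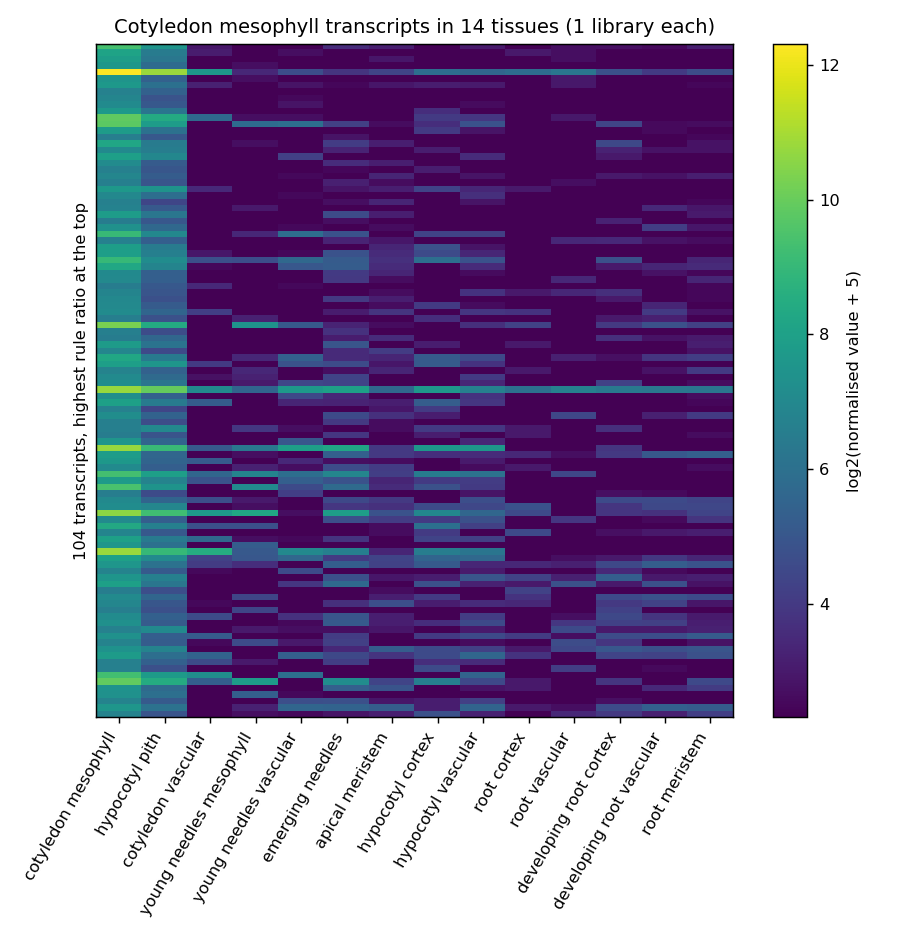
Normalised count of each of the 104 cotyledon mesophyll transcripts (rows, ordered by the ratio the rule used) in the 14 tissues (columns, 1 library each), as log2 of the value plus 5. The cotyledon mesophyll column is the brightest in all rows but 2, the pith column follows it row by row at a median ratio of 0.294, and most cells of the other 12 columns are at or near 0.

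Within its own organ, the group was sparse in the neighbouring tissue. Cotyledon vascular tissue had no read for 69 of the 104 members (66.3%), against 384 of the 1775 transcripts at the same mesophyll level (21.6%). Its median over the members was 0, its 90th percentile 32.2 and its highest value 360. A count of 0 there allows up to 3 reads, a value of 2.63. Since the rule required low values in cotyledon vascular tissue, the gap between 66.3% and 21.6% is in part set by the choice of members.

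Mesophyll of young needles, the same kind of tissue in the later leaves, had no read for 64 members (61.5%), against 21.5% of the 1775 transcripts. The median was 0 and the highest value 305, and 0 reads there allow a value of up to 4.40. For 46 members neither cotyledon vascular tissue nor young needles mesophyll had a read, and for 17 both did, against 168 and 1177 of the 1775 transcripts. Young needles vascular tissue lacked reads for 56 members (53.8%, against 13.5%). In 34 members none of these 3 leaf libraries had a read, against 80 of the 1775. The rule would have removed transcripts shared by leaves in general, so these counts are in part set by the choice of members.

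Emerging needles held reads of the largest number of members among the 12 compared tissues, 70 of 104, with a median of 5.67 and a highest value of 298. They lacked reads for 34 members (32.7%), against 99 of the 1775 transcripts at the same mesophyll level (5.58%). A high rate of detection in emerging needles was thus not particular to the members. Of the 1775, hypocotyl vascular tissue lacked reads for fewer, 93. The tally of highest tissues that follows has no counterpart for the 1775 here. For 28 members emerging needles were the highest of the 12. Hypocotyl cortex was highest for 15, young needles vascular tissue for 13, cotyledon vascular tissue for 11 and young needles mesophyll for 8. The apical meristem and hypocotyl vascular tissue were highest for 6 each, developing root cortex for 5, root cortex, root vascular and developing root vascular tissue for 3 each, and the root meristem for 2. In 14 of these 103 members the highest of the 12 rested on 3 reads or fewer, so that its tissue is not settled by the counts. Hypocotyl cortex needs particular care, because 1 read is worth 3.76 there against 0.709 in emerging needles. The remaining member had 118 reads in the cotyledon mesophyll (99.3), 40 in the pith (38.5) and none elsewhere.

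Root cortex and root vascular tissue held reads of the fewest members. Root cortex lacked reads for 76 members and root vascular tissue for 74, and 27 members had no read in any of the 5 root libraries, against 95 of the 1775 transcripts. Root vascular tissue was the deepest library, with 1536389 reads, so its count of 74 was reached at the greatest depth in the series, whereas root cortex had 578781 reads. Developing root vascular tissue (60 members without reads), developing root cortex (58) and the root meristem (47) had reads of more members. The 1775 transcripts showed much the same order, with no reads for 371 in root vascular tissue, 364 in root cortex, 321 in developing root cortex, 317 in developing root vascular tissue and 274 in the root meristem. Among shoot tissues outside the leaves, hypocotyl cortex had no read for 52 members, and hypocotyl vascular tissue and the apical meristem for 38 each. Of the 1775 transcripts, 226, 93 and 117 lacked reads there, in the same order. Hypocotyl cortex was the shallowest library, with 519134 reads. Over all members, the number of compared tissues with reads had a median of 6 of 12, with 30 members in 3 or fewer and 23 in 9 or more. That number has no counterpart for the 1775 here.

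**Figure D2:**
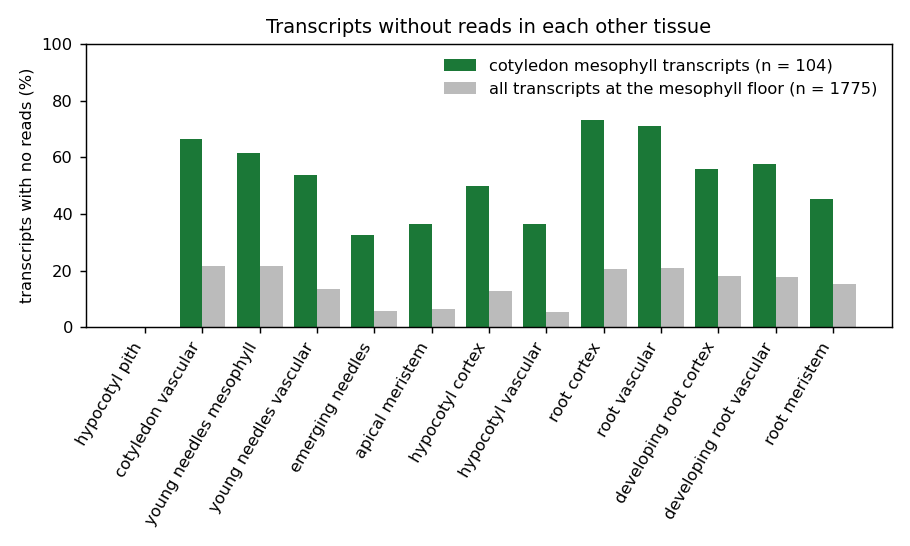
Percentage of transcripts without reads in each tissue other than the cotyledon mesophyll, for the 104 members (green) and for all 1775 transcripts at the same mesophyll level (grey). Hypocotyl pith is at 0% for both, while the 12 tissues the rule compared run from 32.7% in emerging needles to 73.1% in root cortex for the members.

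The hypocotyl pith was the only tissue not compared by the rule, and it had reads for all 104 members. Values there ran from 16.3 to 1762 with a median of 48.1, resting on 17 to 1832 reads. The pith was the highest of the 13 other tissues for 104 of 104 members, against 19.7% of the 1775 transcripts at the mesophyll floor. The rule itself favours this order, because it held the other 12 tissues to about 25% of the mesophyll value and left the pith free. What the rule did not fix was that no member lay near 0 in the pith: the lowest ratio of pith to mesophyll was 0.158.

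The ratio was narrow. Its median over the members was 0.294, its quartiles 0.255 and 0.356, and its 5th and 95th percentiles 0.204 and 0.690. A total of 84 members (80.8%) lay between 0.2 and 0.4, 5 below and 15 above. That range held 59.7% of the 181 transcripts at the floor with a rule ratio of 2 to 4. It held 51.1% of the 309 at 1 to 2 and 25.4% of the 1181 under 1. Across the 104 members pith and mesophyll values had a Spearman correlation of 0.846, given as a description because the members share both libraries and their depths. Mesophyll values correlated at 0.584 with hypocotyl vascular tissue, the next highest, and at 0.0750 with developing root vascular tissue, the lowest. The rule held the 12 compared tissues low, and they lacked reads for 32.7% to 73.1% of the members. Their lower correlations are thus in part set by the choice of members and are no even comparison for the pith. The median ratio was 0.287 in the 68 members under 200 in the mesophyll, 0.312 in the 30 between 200 and 1000, and 0.331 in the 6 above. The median thus rose slightly with level, and the 6 highest members ran from 0.268 to 0.564.

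For most members counting error did not exclude a common ratio, which does not show that they shared it. Members rested on a median of 50 pith reads, so many intervals were wide. The exact 95% binomial interval of a member's own ratio held the median ratio for 74 of the 104 members, lay above it for 21 and below it for 9. Against the ratio of all members' reads pooled, 0.345, the interval held it for 67, lay above for 15 and below for 22. The members with the most reads had the narrowest intervals, for example 0.330 to 0.367 around a ratio of 0.348 for the member with 6013 mesophyll reads. Some members thus departed from either common ratio by more than counting error, in both directions.

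At the low end stood isotig45599 and isotig51558, the pair with the lowest pith value relative to mesophyll once 5 was added to both. isotig45599 had 115 in the cotyledon mesophyll (137 reads) and 18.3 in the pith (19 reads), a ratio of 0.158 with an exact 95% interval of 0.0926 to 0.257. Elsewhere it had 12 in the apical meristem, 6.38 in emerging needles and 1.96 in the root meristem, and no read in the other 9 tissues. isotig51558 had 99.3 in the cotyledon mesophyll (118 reads) and 16.3 in the pith (17 reads), a ratio of 0.165 (0.0928 to 0.275). Its only other reads were 3 in hypocotyl cortex (11.3) and 2 in the apical meristem (2.66). Both were picked as the lowest of 104, so their distance from the median ratio is in part set by that choice. Each had more pith reads than the 3 that a count of 0 allows.

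At the high end, 12 members had a pith value of at least 0.5 of their mesophyll value, and 2 had more in the pith than in the mesophyll. Those 2 stood at 123 against 95.1, a ratio of 1.29 (0.997 to 1.68), and at 127 against 100.1, a ratio of 1.27 (0.982 to 1.64). Both intervals include 1, so which tissue was higher was not detectable at this depth. The first had reads in 7 of the 12 other tissues, led by 11.3 in hypocotyl cortex, 10.3 in young needles mesophyll and 10.0 in hypocotyl vascular tissue, and the second had its highest other value in root vascular tissue, 18.4. High pith ratios were more common at the floor outside the members. The upper quartile was 0.500 for the 181 transcripts with a rule ratio of 2 to 4, and the median was 0.787 for the 1181 under 1.

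The pith ratio was also set beside the members' reads in the other tissues. All 12 compared tissues had reads for more of the 26 members with the highest pith ratio than of the 26 with the lowest. The counts were 12 against 3 in cotyledon vascular tissue, 21 against 14 in hypocotyl vascular tissue, 17 against 11 in hypocotyl cortex, 13 against 8 in young needles mesophyll, 8 against 5 in root cortex, and 8 against 7 in root vascular and 10 against 9 in developing root vascular tissue. These are counts over the same members and libraries in all 12 tissues, with no test of the difference. The pattern was weak: the Spearman correlation of the pith ratio with a tissue's own ratio ran from 0.00896 in root vascular to 0.276 in cotyledon vascular tissue. Both ratios divide by the same mesophyll value, which by itself can make them rise together. The rule also capped the 12 tissues, so the shared direction is not independent evidence of a link with the pith. The median pith ratio was 0.312 in members with the higher mesophyll values and 0.276 in those with the lower. The sets of 26 were not matched for mesophyll level, and its part in the counts was not tested. Grouped by their highest compared tissue, the 60 members led by a leaf tissue had a median pith ratio of 0.290, the 21 led by hypocotyl cortex or vascular tissue 0.280, the 16 led by a root tissue 0.315 and the 6 led by the apical meristem 0.260.

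**Figure D3:**
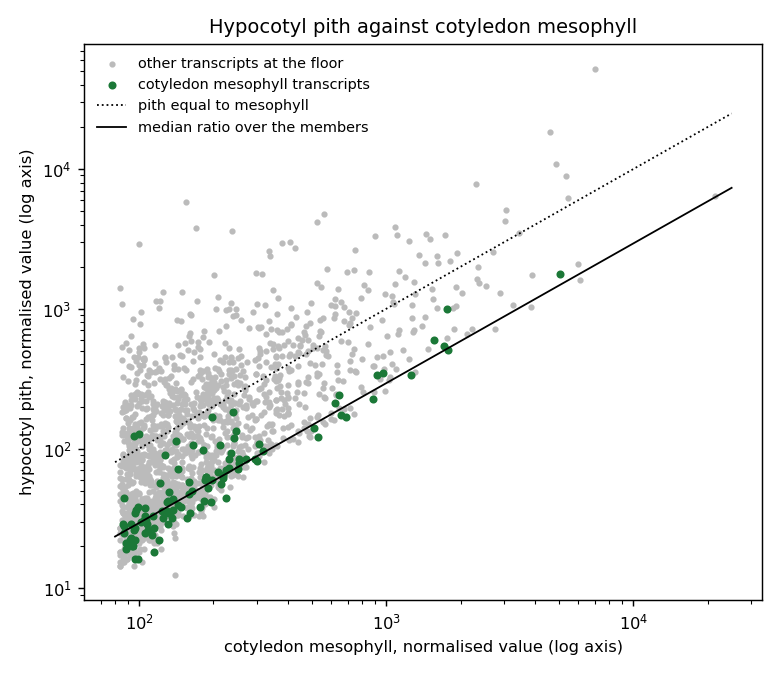
Hypocotyl pith against cotyledon mesophyll, normalised counts on log axes, for the 104 members (green) and the other transcripts at 84 or more in the mesophyll (grey). Most members lie along the solid line, the median ratio of 0.294, and the points thin out below it, with a 5th percentile of 0.229 and a lowest ratio of 0.0895 among the 1775.

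A lower edge was seen beyond the members. All 1775 transcripts at 84 or more in the cotyledon mesophyll had reads in the pith, whereas each of the other 12 tissues lacked reads for at least 93 of them (hypocotyl vascular tissue) and up to 384 (cotyledon vascular tissue). The 5th percentile of the pith ratio was 0.204 for the members, 0.213 for the 181 transcripts at 2 to 4 times the other tissues, 0.221 for the 309 at 1 to 2 times, and 0.250 for the 1181 that were higher in another tissue than in the mesophyll. Medians rose further, from 0.294 through 0.331 and 0.375 to 0.787, and the SD of the log2 ratio from 0.543 to 1.28. The lower edge thus moved less between classes than the median did. By level it was 0.215 between 84 and 200 in the mesophyll and 0.271 both between 200 and 1000 and above. These values hold for the deposited scaling: over transcripts at the floor the 5th percentile was 0.229 there, 0.154 with library totals and 0.132 with median-of-ratios size factors. A pith value of at least 25% of the mesophyll value, with 5 added to both, was met by 92 members (88.5%). It was met by 96.2% of the 1775, so that share was no higher in the members than around them. It rests on the scaling: for the same 104 members it was 32.7% with library totals and 16.3% with median-of-ratios size factors, and 72.8% and 62.4% for all transcripts then at the floor.

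**Figure D4:**
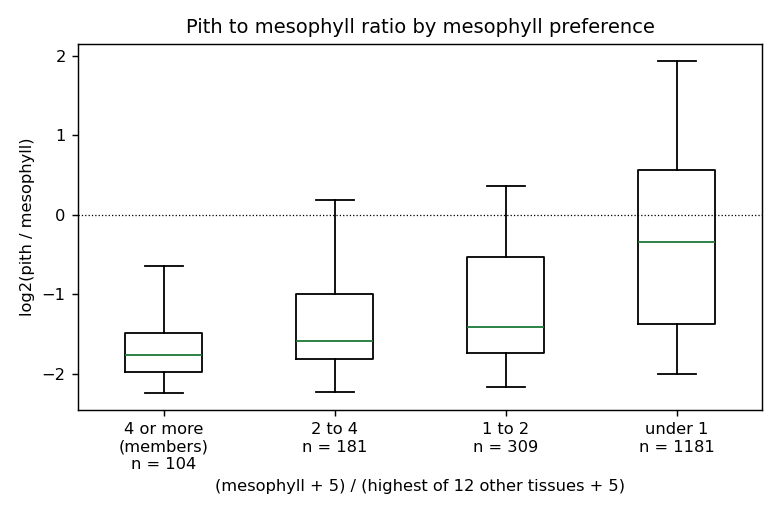
Log2 ratio of hypocotyl pith to cotyledon mesophyll for the 1775 transcripts, in 4 classes by how far the mesophyll exceeded the highest of the 12 other tissues. Boxes are quartiles with the median, whiskers the 5th and 95th percentiles, and the whiskers' lower ends, ratios of 0.204 to 0.250, differ little while the upper ends, 0.690 to 3.83, differ widely.

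Under the deposited scaling the size of the group rested on leaving out the pith. With all 13 other tissues compared, 12 transcripts passed, and those 12 were the members with a pith value under 25% of mesophyll after adding 5. Leaving out any other tissue in place of the pith gave 12 to 17: young needles mesophyll added 5, cotyledon vascular tissue 3, emerging needles 2, hypocotyl vascular and root vascular tissue 1 each, and the remaining 7 tissues none. Leaving out the pith added 92. When the same floor and ratio were applied to every tissue with every other tissue left out in turn, 182 ordered pairs in all, the proportional gain for cotyledon mesophyll without pith, from 12 to 104, was exceeded in 1 pair, young needles vascular without hypocotyl vascular tissue, from 8 to 175. With pith compared, 132 transcripts passed with library totals and 139 with median-of-ratios size factors, and leaving it out added 78 and 37. Leaving out emerging needles instead added 40 and 49, so that under median-of-ratios size factors the pith no longer gave the largest gain. The 2 pairs above were also those in which no transcript at the deposited floor of the first tissue lacked reads in the second. For cotyledon mesophyll and pith this was so under all 3 scalings.

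The relation did not hold in reverse. With cotyledon mesophyll left out, 132 transcripts passed the rule for the pith, against 107 with it compared. Of the 132, 77 had no read in the cotyledon mesophyll and the median ratio of mesophyll to pith was 0. Among 2120 transcripts at 84 or more in the pith, 246 lacked reads in the cotyledon mesophyll. All 1775 transcripts at the mesophyll floor thus had pith reads, and 11.6% of those at the pith floor had no mesophyll reads. Whether the pith itself held the members' RNA, or its library took up cotyledon mesophyll material or reads, was not tested, and with 1 library per tissue the possibilities cannot be told apart.

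**Figure D5:**
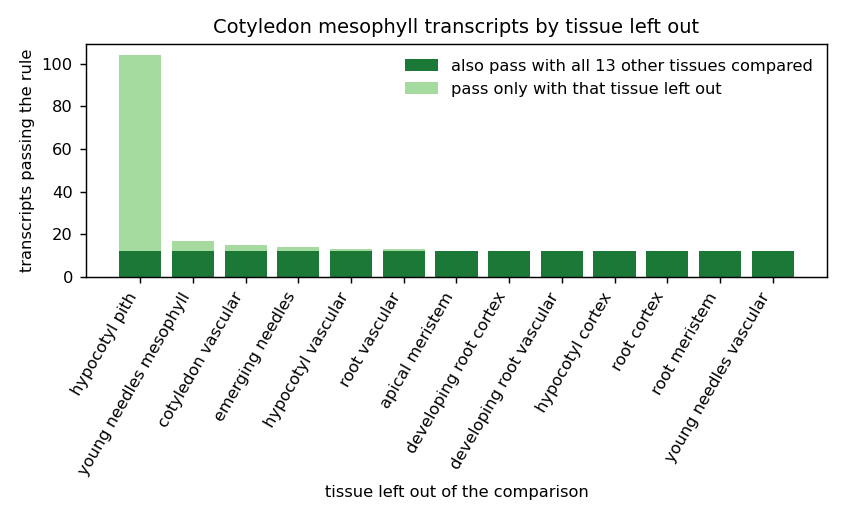
Number of transcripts that passed the cotyledon mesophyll rule when each of the 13 other tissues (1 library each) was left out of the comparison in turn, under the deposited scaling. Dark bars are the 12 that pass with all tissues compared, light bars those that pass only without the named tissue, which number 92 for the hypocotyl pith and at most 5 elsewhere. Under the other scalings 132 and 139 pass with all tissues compared.

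Size of the ratio depended on how the libraries were scaled. The deposited counts carry a normalisation factor of 1.34 for cotyledon mesophyll and 0.949 for pith. Scaled by library totals alone, the median ratio over the transcripts then passing was 0.207, and with median-of-ratios size factors it was 0.177. The group grew to 210 and 176 transcripts, of which 97 and 101 were among the 104. Pith was the highest other tissue for 87.1% and 76.1% of them. All 97 were shared by both scalings, and the 40 members at 8 times or more the other tissues were all among them.

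Close to the threshold the rule separated like transcripts. Just inside stood a transcript at 106 in the mesophyll and 22.5 in its highest compared tissue, a ratio of 4.03, and just outside one at 109 and 23.4, a ratio of 3.996. Their pith ratios were 0.236 and 0.257. Between ratios of 4 and 5 lay 30 members, and 38 transcripts fell just short, between 3.5 and 4. The median member stood at 6.85, with 23 at 10 or more and 9 at 20 or more. At the mesophyll floor the lowest member had 85.8. Just below the floor, transcripts tied at 83.3 met the ratio at 4.28 and 17.7, with pith ratios of 0.219 and 0.254.

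Identifiers were the one property outside the counts. Of the members 77 (74.0%) were isotigs, assembled transcript models, 26 (25.0%) were named unigene and 1 carried the prefix PUT. Among the 1775 transcripts at the same mesophyll level, isotigs made up 58.6% and unigenes 40.1%, and over all 23493 transcripts these shares were 68.5% and 30.6%. No pair of member isotigs had consecutive numbers. Of the isotigs at the mesophyll floor 10 of 1040 (0.962%) did, and of all isotigs 4763 of 16090 (29.6%), so the count depends on how densely a list samples the numbers. The files do not say what the identifier types mean for sequence or function.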

How the data were processed

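The deposited table held 14 columns, 1 per tissue, matched to samples by the short names in the labels. Its values are a normalised signal made by the authors. FastQC, BWA and edgeR are listed without versions in the submitters' processing notes, and the assembly and the filter on low reads are not given in the sources used here. In every column 100% of the deposited signal values were whole multiples, within 0.001, of the worth of 1 read, so reads were recovered, 519134 to 1536389 per library. No count test was run on them, since each tissue is 1 library and the members were chosen on these values. Ratios of pith to mesophyll were computed per transcript without a pseudocount. Intervals are exact binomial (per member) or Wilson (shares of reads) at 95%, for counting error only, since amplified reads are not independent molecules.

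The members, classes and alternatives were chosen with earlier results of these data known. Named transcripts were the 2 members with the highest rule ratio and the 2 with the lowest pith ratio after adding 5. Others are given without identifier, because the table pairs no identifier with a gene name. The list of mesophyll and vascular marker genes was void for the same reason. Alternatives changed the pseudocount, ratio, floor, scaling and libraries compared. Python 3.11.15, pandas 2.3.3, numpy 2.4.6, scipy 1.17.1 and matplotlib 3.10.9 were used, and the rule was tested on simulated data.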

Additional observations from a re-analysis of the deposited data

How the results depend on the processing

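The number of members, 104, became 53 with 25 added in the ratio, 285 and 40 at a ratio of 2 and 8, 260, 46 and 418 with 50%, 200% or none of the floor, 210 scaled by library totals, 176 with median-of-ratios size factors and 12 with pith compared. With pith compared under the 2 scalings, added after the data were examined, it was 132 and 139. The number was 104 to 139 when 1 more of the 12 tissues was left out, a change that can only keep or add members. With pith compared after reads equal to 20% of the mesophyll reads (the 5th percentile of the read ratio) were taken off it, 89 passed, all of them members. The 20% came from these same libraries and the members' median pith ratio was 0.294, so most were bound to pass by arithmetic. The source of the pith reads was not tested by this count. The share with pith at 25% or more, 88.5%, was 80.3% with 1 added and 100% with 25 added, and 37.1% and 21.0% under the 2 scalings. The share with pith as the highest other tissue, 100%, was 71.6% at a ratio of 2, and 87.1% and 76.1% under the 2 scalings. Leaving a further tissue out frees it from the rule, and this share was then 81.3% without young needles mesophyll, 86.3% without hypocotyl cortex, 88.7% without cotyledon vascular tissue, 89.1% without emerging needles, 93.0% without developing root cortex, 96.4% without young needles vascular and 96.3% without root vascular tissue. The median pith ratio, 0.294, was 0.315 at a ratio of 2, 0.277 with no floor, and 0.207 and 0.177 under the 2 scalings. No paired analysis was possible because each tissue is 1 library. Depth limits the low tail: 0 reads allow a value of up to 1.96 in the root meristem and 11.3 in hypocotyl cortex.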
